A study of Mus musculus with 21 samples.

Results

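Spiral ganglion neurons (SGNs) of the mouse cochlea were compared at postnatal day (P) 14 and P30, with 3 RNA-Seq libraries at each age. The genes compared were those with CPM (counts scaled to the library size) over 1 in all 3 libraries of either age. Of the 52550 genes in the deposited table, 12795 met this rule: 11477 at both ages, 597 at P14 only and 721 at P30 only. Among them, 11513 were annotated as protein coding. The 6 libraries belong to a series of 21, whose other groups are SGNs at E15.5, P1 and P8, glial cells of the P8 cochlea and P12 hair cells (HCs) of the cochlea and vestibular organs. All mice were of the C57BL/6 strain. The SGN groups carried *ShhCre/+; Rosa26-CAG-loxp-stop-loxp-tdTomato/+*, in which Cre under the control of *Shh* turns on the red fluorescent protein tdTomato, and this genotype was shared by both ages. The reference cells carried the same reporter with a tamoxifen-dependent Cre, *Atoh1-CreER+* for HCs (tamoxifen at P0 and P1, obtained by FACS per the study's methods) and *vGlut3-iCreER/+* for glial cells (tamoxifen at P2 and P3, with only the SGN area dissected, since inner HCs are labelled too). Fluorescent cells were picked by hand after pronase digestion, 127, 103 and 89 cells for P14 replicates 1 to 3 and 114, 90 and 90 cells for P30 replicates 1 to 3, and their RNA was amplified before library construction. The authors admitted samples by qPCR of marker genes that included *Sox10* and *Myosin-VI*, so the levels of *Sox10* and *Myo6* in these libraries are not independent of that selection. The labels do not say whether the 3 replicates of an age came from separate animals, and the p-values below measure the spread between these libraries, which may be technical.

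SGNs carry the sound signal from the HCs to the brainstem. Type I SGNs, the great majority, are bipolar, myelinated and fed by a ribbon synapse of an inner HC, and type II SGNs contact the outer HCs. Mice begin to hear shortly before P14, so the interval from P14 to P30 follows the onset of hearing, when firing becomes driven by sound and when the electrical and synaptic properties of auditory neurons are known to mature. In neurons, *Dnmt3a* encodes the main enzyme that writes new DNA methylation after birth, and the TET enzymes *Tet1*, *Tet2* and *Tet3* oxidize methylated cytosine, the first step of its removal. The question put to the data was which genes of SGNs change over this interval, and how closely a lack of change can be bounded.

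The labelled cell type was checked first. The 11 SGN markers, among them *Snap25*, *Nefl*, *Ntrk3* and *Slc17a6*, summed to between 16789 and 18514 CPM in the P14 libraries and between 18279 and 19108 CPM in the P30 libraries, against 220 to 1500 CPM in the glial libraries. Of the 11 HC markers, *Calb2* was higher in SGNs (663 CPM at P14) than in HCs (108 CPM), and the 10 others summed to 960, 387 and 202 CPM at P14 and to 424, 330 and 332 CPM at P30, against 9676 CPM in HCs. The ages overlapped in this sum (exact permutation test, p = 0.8). Glial and Schwann cell markers, which did differ between the ages, are described with *Gldn* below. Connective tissue markers summed to 282, 34.8 and 39.7 CPM at P14 and to 131, 10.4 and 8.09 CPM at P30, supporting cell and epithelial markers to 188, 5.47 and 67 CPM and then to 37.3, 5.396 and 3.43 CPM, and satellite glia and astrocyte markers to 271, 135 and 94.8 CPM and then to 106, 42.2 and 26.3 CPM. Replicate 1 was the highest library of its age in each of these 3 sums, and the ages overlapped. Endothelial and pericyte markers summed to 0.279 to 25.7 CPM, with the highest sum in P14 replicate 1, blood cell markers to 1.17 to 10.1 CPM and macrophage markers to 0.343 to 8.95 CPM, and *Cldn5* and *Ptprc* were at 0 in each library but P30 replicate 1. The 6 libraries held between 19323437 and 37287489 counts on genes, and a limit of 3 counts for a gene at 0 equals 0.0805 to 0.155 CPM, for counting error only. Mitochondrial genes took 24.2%, 22.4% and 22.2% of the counts at P14 and 20.3%, 17.9% and 22.1% at P30. These ranges did not overlap, and the exact permutation test gave p = 0.1, the smallest p that 3 libraries against 3 can give. The pools also differed in sex: *Xist*, which is transcribed from the inactive X chromosome of females, was at 497.5, 262 and 258 normalized CPM at P14 and 185, 168 and 59.8 at P30, while the Y-linked *Ddx3y* was at 1.2, 24.5 and 3.83 at P14 and at 18.8, 17.7 and 30.8 at P30. By *Ddx3y*, P14 replicate 2 lay with the P30 libraries, so the sexes differed among the P14 pools as well, and the part of sex in the results was not tested. Levels below are normalized CPM, CPM computed on the TMM-scaled library size, on which libraries of 1 gene can be compared.

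Between P14 and P30, 9 of 15113 genes tested in SGNs changed more than 2-fold at a Benjamini-Hochberg adjusted p under 0.05 (limma-voom), or 0.0596%. *Onecut2*, *Sh3bgrl2*, *Plcxd2*, *Efhd2* and *Bsn* were higher at P30 (5 genes, 0.0331%), and *Dnmt3a*, *Tet1*, *Tet3* and *Gldn* were lower (4 genes, 0.0265%). All 9 are among the 12795 genes of the comparison. A fit that held the replicate number as a block was used because the libraries of both ages deviated together by number. It called 23 genes (0.152%), with 15 higher and 8 lower, and all 9 were among them. The labels do not say what libraries of the same number share, and the block was chosen from these same data. In the same blocked design restricted to the 6 libraries, 270 genes were called (2.11%), 74 higher and 196 lower, and the 9 were again included. That fit has few libraries from which to estimate the spread. The number of calls rested on single libraries: 1 gene was called without P14 replicate 1, without P14 replicate 2 or without P30 replicate 3, 3 without P30 replicate 2, 7 without P30 replicate 1 and 30 without P14 replicate 3. *Dnmt3a* was called in each of these fits. Among the 9, *Dnmt3a*, *Tet1*, *Tet3* and *Onecut2* were also called by edgeR's quasi-likelihood test, and *Dnmt3a* and *Tet1* in the fit to the 6 libraries without a block.

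**Figure D1:**
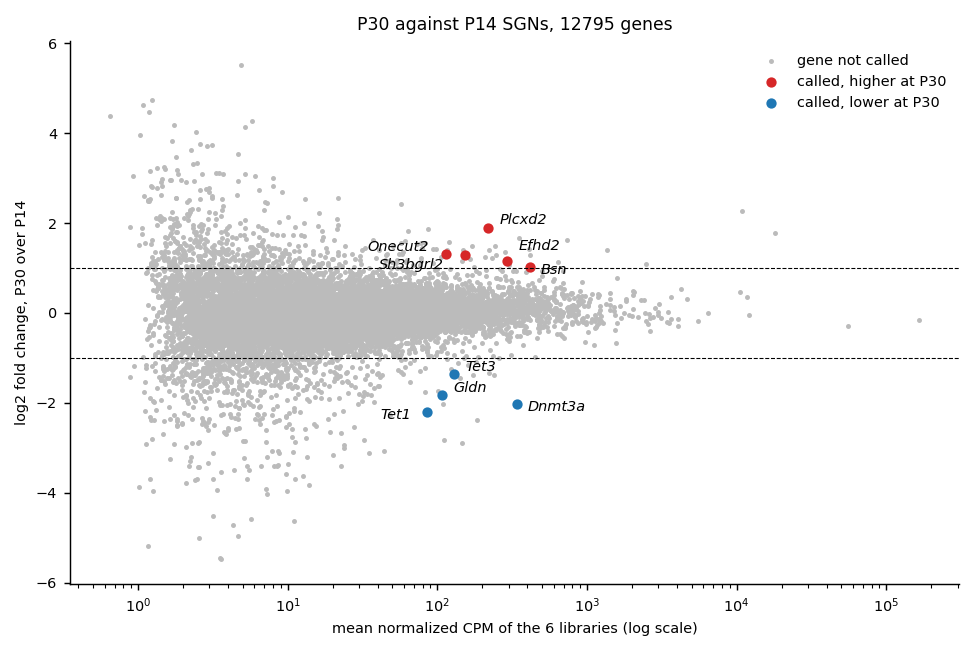
Each point is 1 of the 12795 genes, placed by its mean normalized CPM over the 6 libraries (log axis) and its log2 fold change from P14 to P30, with dashed lines at a 2-fold change. The 5 genes called higher (red) and the 4 called lower (blue) lie at means near and above 100 normalized CPM, where the scatter of the other genes (grey) is narrower than at low levels.

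Of the 4 genes called lower, 3 encode enzymes that write or oxidize DNA methylation. Of the 19 genes on a list of DNA methylation writers, erasers and readers, 16 were measured, 3 were called lower and 0 were called higher. The median log2 fold change over the 16 was -0.23, against -0.003 over all 12795 genes. Because the members of each list were chosen with earlier results of these data known, the counts describe the lists and are not tests of them.

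*Dnmt3a* (chromosome 12, 3806007 to 3914443, plus strand, GRCm38) was at 489, 591 and 552 normalized CPM in P14 replicates 1 to 3 and at 126, 147 and 128 in P30 replicates 1 to 3. The lowest P14 library lay over 3 times above the highest P30 library, and the groups did not come near each other. The mean fell from 544 ± 51.4 to 134 ± 11.7 (SD, n = 3), a log2 fold change of -2.03 (SE 0.16, limma adjusted p = 5.1e-06), or 4.08-fold. Leaving out single libraries moved this value between -2.11 and -1.93. *Dnmt3a* had been at 191 ± 35.5 at E15.5 and 418 ± 37.5 at P1, and its highest mean was 792 ± 44.9 at P8, and the P30 libraries lay under each of the E15.5 libraries, 152 to 221, a difference that was not tested. An antisense gene, *Dnmt3aos*, overlaps *Dnmt3a*, and reads of both genes cannot be told apart where strand was not used in counting.

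*Tet1* (chromosome 10, 62804570 to 62908996, minus strand) was at 137, 174 and 115 normalized CPM at P14 and at 38.9, 24.6 and 27.1 at P30. The fall was 4.58-fold (log2 fold change -2.19, SE 0.34, limma adjusted p = 0.017), and every P30 library was under each P14 library by over 2-fold. *Tet3* (chromosome 6, 83362373 to 83459084, minus strand) was at 207, 220 and 137 normalized CPM at P14 and at 77.9, 69.4 and 67.2 at P30. It fell 2.58-fold (log2 fold change -1.37, SE 0.21, limma adjusted p = 0.017), again without overlap, although P14 replicate 3 lay well under the other 2 libraries of its age. *Tet1*, like *Dnmt3a*, had its highest mean at P8 (216 ± 22.9), whereas *Tet3* was at 273 ± 28.7 at E15.5, 240 ± 37.4 at P1 and 264 ± 25 at P8. The *Tet1* and *Tet3* calls were kept in 1 of the 6 fits that left out a library, with adjusted p up to 0.165 in the others. Their log2 fold changes stayed between -2.40 and -2.01 for *Tet1* and between -1.57 and -1.21 for *Tet3*. Both genes overlap other annotated genes. *Tet2*, the third member of the family, was at 47.6, 50.4 and 47.8 normalized CPM at P14 and at 31.8, 42.4 and 41.6 at P30. Its libraries did not overlap either, but its log2 fold change of -0.37 (SE 0.25, limma adjusted p = 0.90) did not pass the test.

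The other enzymes and readers of the list were not called. *Dnmt1*, which copies methylation after replication, had a log2 fold change of 0.18 with a 95% confidence interval inside a 2-fold change. It was at 38.3, 50.3 and 46.4 normalized CPM at P14 and at 55.6, 48.6 and 45.8 at P30, which overlap. In all, 8 of the 16 genes had an interval inside a 2-fold change, against 42.2% of the 12795 genes. *Gadd45a*, *Gadd45b* and *Gadd45g*, linked to active demethylation, were below 16 normalized CPM in each library, and their SEs of 0.65 to 0.89 left changes of over 2-fold in either direction possible. Of the 48 histone and nucleosome regulators, 0 were called, 28 had an interval inside a 2-fold change, and the median was -0.06.

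**Figure D2:**
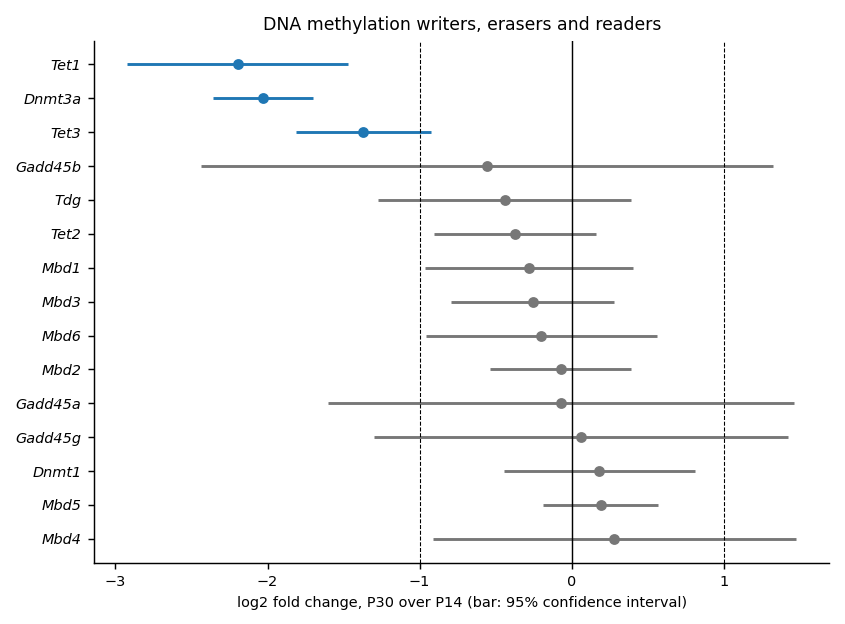
Log2 fold change from P14 to P30 for 15 of the 16 measured genes of the DNA methylation list, with bars for the limma 95% confidence interval and dashed lines at a 2-fold change. *Tet1*, *Dnmt3a* and *Tet3* (blue, called lower) stand apart on the left, and the intervals of the other genes (grey) include 0.

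The promoters of the 3 enzymes are shown because they are the genes of 1 pathway that fell together, and because CG dinucleotides are the sites on which their proteins act. The windows run from 250 bases before to 50 bases after a RefSeq transcript start (GRCm38.p6), 5′ to 3′ on the strand of the gene, and capitals mark each CG. Each window shown is at a start inside its gene, downstream of the annotated 5′ ends at 62908996 (*Tet1*), 83459084 (*Tet3*) and 3806007 (*Dnmt3a*). Windows at those ends are not shown. *Dnmt3a* has 3 listed starts, of which an upstream and the downstream one are printed:
Dnmt3a chr12:3806730-3807029: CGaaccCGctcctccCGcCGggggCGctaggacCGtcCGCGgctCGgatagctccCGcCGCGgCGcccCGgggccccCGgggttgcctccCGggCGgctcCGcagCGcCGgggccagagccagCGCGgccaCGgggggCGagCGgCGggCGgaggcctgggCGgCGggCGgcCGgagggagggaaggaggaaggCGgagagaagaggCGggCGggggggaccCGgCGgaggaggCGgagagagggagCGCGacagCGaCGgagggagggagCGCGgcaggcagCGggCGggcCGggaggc
Dnmt3a chr12:3891494-3891793: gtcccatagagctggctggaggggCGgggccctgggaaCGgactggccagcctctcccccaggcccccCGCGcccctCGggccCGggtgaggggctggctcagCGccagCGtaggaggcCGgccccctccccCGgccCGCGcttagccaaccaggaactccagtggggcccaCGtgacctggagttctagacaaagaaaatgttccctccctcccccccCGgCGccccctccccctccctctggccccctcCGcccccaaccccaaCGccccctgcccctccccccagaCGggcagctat
Tet3 chr6:83441629-83441928: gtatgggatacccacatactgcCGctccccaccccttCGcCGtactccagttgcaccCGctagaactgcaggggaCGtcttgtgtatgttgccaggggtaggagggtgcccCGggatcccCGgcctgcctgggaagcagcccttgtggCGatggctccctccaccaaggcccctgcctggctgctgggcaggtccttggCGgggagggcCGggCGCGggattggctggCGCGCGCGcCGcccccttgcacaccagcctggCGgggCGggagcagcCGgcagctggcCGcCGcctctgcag
Tet1 chr10:62887275-62887574: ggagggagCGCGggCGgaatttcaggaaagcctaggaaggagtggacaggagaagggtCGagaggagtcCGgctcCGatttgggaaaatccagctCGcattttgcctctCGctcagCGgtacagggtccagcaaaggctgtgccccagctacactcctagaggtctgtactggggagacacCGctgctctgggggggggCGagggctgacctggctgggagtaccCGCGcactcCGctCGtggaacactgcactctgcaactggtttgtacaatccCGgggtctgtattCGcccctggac
The upstream *Dnmt3a* window held 46 CG dinucleotides and the downstream one 18. *Tet3* held 22 and *Tet1* 17, where the median was 7 over all 32851 listed promoters and 21 over the 12108 promoters of genes in the comparison. Of listed promoters, the upstream *Dnmt3a* window had more CG dinucleotides than 98.4%, the downstream one more than 70.3%, *Tet3* more than 76.9% and *Tet1* more than 68.6%. Beside the median of 21 for genes in the comparison, the *Tet1* and downstream *Dnmt3a* windows were lower, and *Tet3* at 22 was close. The GC box GGGCGG, searched on both strands, was in each of the 4 windows and in 35.7% of all promoters, and the E-box CACGTG was in the downstream *Dnmt3a* window and in 7.15% of all promoters. These matches describe the letters of the windows. DNA methylation itself was not measured.

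*Gldn* (chromosome 9, 54286486 to 54341786, plus strand) encodes gliomedin, a protein secreted by Schwann cells that gathers sodium channels at the node of Ranvier. It was at 191, 172 and 141 normalized CPM at P14 and at 56.3, 50.04 and 35.2 at P30. The groups were separated by over 2-fold between their closest libraries, and the log2 fold change was -1.83 (SE 0.29, limma adjusted p = 0.017), or 3.56-fold lower. *Gldn* had risen before, from 6.6 ± 2.6 at E15.5 to 42.2 ± 16.6 at P1 and 187 ± 56.2 at P8. The call was kept in 1 of the 6 fits that left out a library, and was lost with edgeR's quasi-likelihood test and with the 6 libraries only. An antisense gene, *Gldnos*, overlaps it.

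Most glial markers moved in the same direction. The 16 glial and Schwann cell markers summed to 1647, 1066 and 795 CPM in P14 replicates 1 to 3 and to 743, 464 and 343 CPM in P30 replicates 1 to 3, without overlap (exact permutation test, p = 0.1, the smallest this design allows), against 19456 to 25541 CPM in the glial libraries. Of the 11 measured, *Gldn* was called, 10 (*Gldn* among them) had an unadjusted p under 0.05 and were lower at P30, and the median was -2.19. The 10 were between 5 and 10 when single libraries were left out. In bulk samples, fewer glial cells in the pool and less RNA per glial cell cannot be told apart. *Foxd3*, *Mag*, *Ncmap*, *Pllp* and *Fabp7* were not over 1 CPM in all libraries of either age. *S100b*, a calcium-binding protein on the list, was not a glial gene in these libraries, at 26.25 CPM in glial cells against 236 CPM in SGNs at P14 and 263 CPM at P30. Its level was 275 of the 343 CPM of P30 replicate 3. Without it, the sums were 1502, 829 and 470 CPM at P14 and 501, 192 and 68 CPM at P30, so that P14 replicate 3 lay under P30 replicate 1 (exact permutation test, p = 0.2). *Gldn*, which was also lower in glial cells than in P14 SGNs, is still in these sums. It was at 126 to 178 CPM at P14 and at 28.8 to 49.1 CPM at P30.

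Levels in the glial libraries are given beside those of the genes called lower. *Gldn* averaged 149 ± 26.5 CPM in P14 SGNs and 44.6 ± 5.66 CPM in the glial libraries (SD, n = 3, library size only), so it was lower in the glial cells than in the SGNs. *Dnmt3a* averaged 481 ± 21.7 CPM in P14 SGNs and 214 ± 96.8 in glial cells. *Tet1* averaged 125 ± 21.8 CPM in P14 SGNs and 104 ± 64.5 in glial cells, and *Tet3* was higher in glial cells, at 423 ± 50 against 167 ± 38.8 CPM. *Arhgap31* and *Lamc1*, which were called lower with the replicate block, were at 247 and 3284 CPM in glial cells. *Kcnj10*, the inward rectifier of satellite glia, was at 58.1, 48.2 and 34.6 normalized CPM at P14, at 16.6, 7.38 and 3.12 at P30 and at 723 CPM in glial cells (log2 fold change -2.53, SE 0.55, limma adjusted p = 0.14, and 0.011 with the replicate block). The part of glial RNA in these values was not tested.

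**Figure D3:**
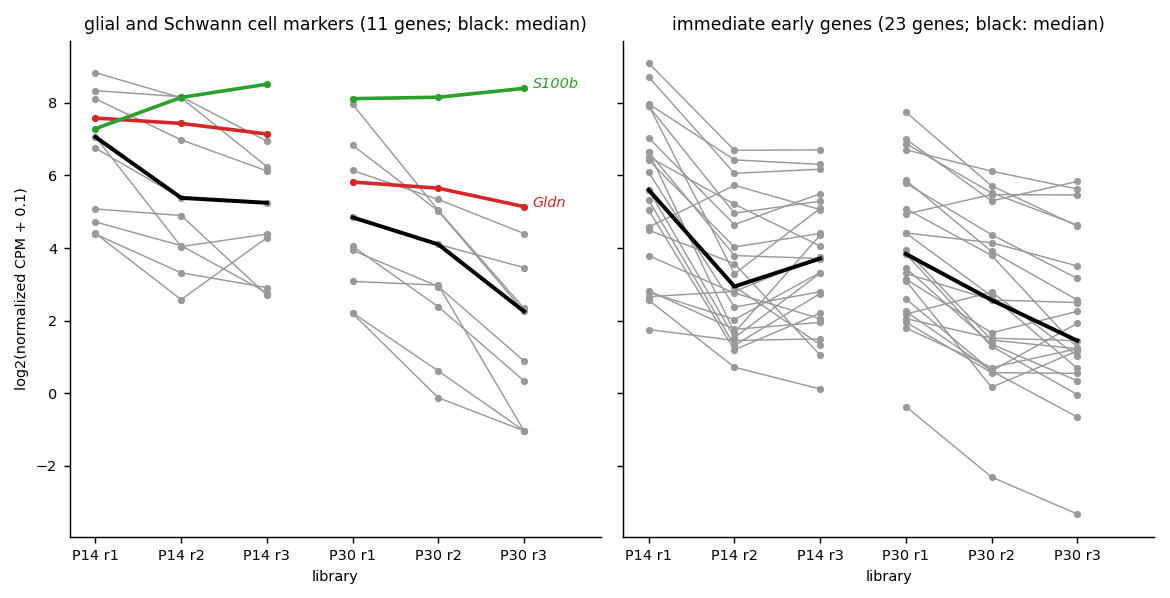
Log2(normalized CPM + 0.1) of each measured glial marker (left, 11 genes) and immediate early gene (right, 23 genes) in the 6 libraries, with lines joining the libraries of an age and the median in black. The glial median and *Gldn* (red) were lower at P30, *S100b* (green), which was at 26.25 CPM in the glial libraries, was not, and immediate early genes were highest in replicate 1 at both ages.

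Among the genes that rose, *Onecut2*, a homeobox transcription factor with a CUT domain, was at 71.4, 69.5 and 58 normalized CPM at P14 and at 183, 137 and 172 at P30. The libraries of the ages did not overlap, and the log2 fold change was 1.31 (SE 0.21, limma adjusted p = 0.017), or 2.47-fold. It is encoded on chromosome 18, from 64340020 to 64400987, and no annotated gene overlaps it. The gene had fallen from 186 ± 44.1 at E15.5 to 86.9 ± 1.7 at P1 and 48.8 ± 3.8 at P8, so the level at P30 lay within the range of the embryonic libraries, 136 to 220. It was near 0 outside the neurons, at 3.45 CPM in HCs and 1.96 CPM in glial cells.

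*Bsn* (chromosome 9, 108096022 to 108190384, minus strand) encodes bassoon, a giant scaffold protein of the presynaptic active zone that also tethers the ribbon in HCs. It was at 256, 232 and 339 normalized CPM at P14 and at 612, 414 and 643 at P30. The rise was just over 2-fold (log2 fold change 1.03, SE 0.18, limma adjusted p = 0.037), and P14 replicate 3 and P30 replicate 2 were the closest libraries. From E15.5 to P14 the mean had stayed between 276 and 292. HCs had 80.4 CPM of *Bsn* and glial cells 13.3 CPM.

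*Efhd2*, an EF-hand calcium-binding protein of neurons and immune cells, was at 176, 139 and 231 normalized CPM at P14 and at 333, 350 and 537 at P30 (log2 fold change 1.15, SE 0.21, limma adjusted p = 0.037). *Plcxd2*, which has a phospholipase C X domain, was at 71.4, 65.2 and 145 at P14 and at 252, 254 and 531 at P30 (log2 fold change 1.89, SE 0.33, limma adjusted p = 0.035). *Sh3bgrl2*, a small thioredoxin-like protein, was at 99.3, 66.8 and 101 at P14 and at 183, 210 and 262 at P30 (log2 fold change 1.29, SE 0.20, limma adjusted p = 0.017). Replicate 3 was the highest library of each age for these 3 genes. *Sh3bgrl2* and *Efhd2* had a higher mean at each successive age, from 2.9 and 11.7 normalized CPM at E15.5 to 48 and 89.8 at P8, whereas the 3 earlier means of *Plcxd2* were between 34 and 54.6. *Sh3bgrl2* was near 0 outside the neurons, at 0.404 CPM in HCs and 1.17 CPM in glial cells, whereas *Efhd2* and *Plcxd2* were higher in HCs, at 284 and 148 CPM, than in P14 SGNs, at 162 and 83.4 CPM. *Efhd2* was the most abundant of the 5 genes per length, at 171 normalized CPM per kilobase at P30. The calls of the 5 genes were each kept in 2 of the 6 fits that left out a library, and the lowest log2 fold change in these fits was 0.946 for *Bsn*. *Sh3bgrl2*, *Plcxd2*, *Efhd2* and *Bsn* were not called by edgeR's quasi-likelihood test or with the 6 libraries only, and *Onecut2* was not called with the latter.

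**Figure D4:**
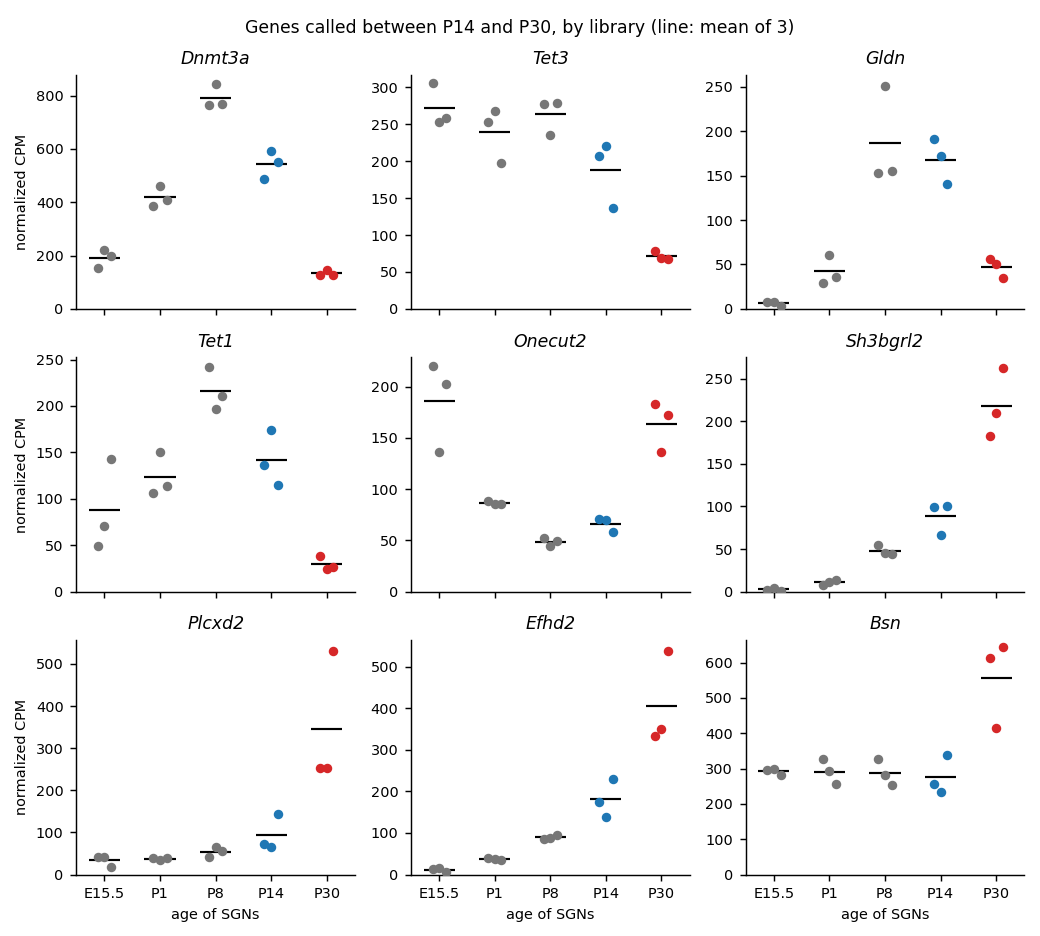
Normalized CPM of the 9 called genes in each of the 15 SGN libraries by age, with a line at the mean of 3 libraries and axes that start at 0. P14 (blue) and P30 (red) do not overlap for any of the 9, and *Dnmt3a*, *Tet1* and *Gldn* had their highest mean at P8.

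An adjusted p under 0.05 without the 2-fold limit was met by 13 genes, and the 4 added were close to the limit. *Marf1*, an RNA-binding protein needed for the meiosis of oocytes, rose with a log2 fold change of 0.97 (SE 0.15), from 180, 162 and 189 normalized CPM to 322, 358 and 366. *Amigo1*, a leucine-rich adhesion protein that binds Kv2 potassium channels, rose by 0.95 (SE 0.16). *Plxna1*, a semaphorin co-receptor, fell by 0.97 (SE 0.17) from 279, 385 and 282 to 162, 163 and 153 normalized CPM, and *Atxn7l3b* fell by 0.85 (SE 0.15), with limma adjusted p between 0.017 and 0.037. Among the genes named for having no overlap and the smallest p without a call, *Cbfb*, the partner subunit of RUNX factors, rose from 132, 136 and 207 to 355, 315 and 550 normalized CPM under the replicate block (log2 fold change 1.36, limma adjusted p = 0.012, and 0.054 without the block). *Akap6*, which anchors protein kinase A, had a log2 fold change of 0.69 and an adjusted p of 0.078 in limma, and of 0.034 with the block, and *Pnma2* had 1.32 and 0.11. *Bdh1*, a mitochondrial enzyme of ketone metabolism, was lower, at 48.6, 45.5 and 51.1 normalized CPM at P14 and at 17.1, 18.5 and 16.7 at P30 (log2 fold change -1.47, limma adjusted p = 0.029 with the block and 0.10 without). *Dot1l*, the H3K79 methyltransferase, and *Pappa*, a protease of IGF-binding proteins, had log2 fold changes of -1.34 and -0.88 with an adjusted p of 0.13 in limma.

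Without the adjustment, 517 of the 12795 genes (4.04%) had p under 0.05 and were higher at P30, and 418 (3.27%) were lower. The libraries of the 2 ages did not overlap for 1037 genes that were higher (8.1%) and 1001 that were lower (7.82%). These shares are the background for the gene lists that follow.

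Voltage-gated potassium channels shape the firing of auditory neurons. Of the 39 subunits and auxiliary subunits listed, 33 were measured and 0 were called. At an unadjusted p under 0.05, 11 of the 33 were higher and 2 lower at P30, 7 were higher and 1 lower without overlap, and the median log2 fold change was 0.30. Between 8 and 11 were higher when any single library was left out. *Kcnb2*, a Kv2 delayed rectifier, was at 250, 221 and 719 normalized CPM at P14 and at 912, 794 and 1514 at P30. P14 replicate 3 lay close to the P30 libraries, and the log2 fold change of 1.62 (SE 0.33) had a limma adjusted p of 0.11, and of 0.014 with the replicate block. *Kcnh7*, an ERG channel, was at 157, 106 and 151 normalized CPM at P14 and at 323, 242 and 414 at P30 (log2 fold change 1.23, SE 0.27), and *Kcnip4*, a calcium-binding partner of Kv4 channels, was at 27.6, 36.7 and 54.3 at P14 and at 70.3, 82.5 and 106 at P30 (1.18, SE 0.28). With the block these 3 genes rose past the threshold, with limma adjusted p of 0.014 to 0.042, against 0.11 to 0.16 without it. *Kcnc2*, a fast Kv3 channel, and the Kv4 channels *Kcnd2* and *Kcnd3* had log2 fold changes of 1.201, 1.21 and 1.40 with limma adjusted p of 0.23 to 0.40. *Kcnip1* was the largest change in the other direction, at -0.98 (SE 0.29). *Kcnc1*, the Kv3 channel of fast-firing auditory neurons, had 583, 575 and 678 normalized CPM at P14 and 757, 818 and 825 at P30, a log2 fold change of 0.39 (SE 0.14) that lay inside a 2-fold change.

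Other channel groups moved less evenly. Of the 9 measured voltage-gated sodium channel subunits, 0 had an unadjusted p under 0.05 and 5 had an interval inside a 2-fold change. *Scn9a* had a log2 fold change of 0.49 (SE 0.42), which was -0.22 without P30 replicate 1 at 174 normalized CPM, since the 5 other libraries lay between 37.5 and 70.6. Among 18 calcium channel subunits, 4 were lower and 1 higher at an unadjusted p under 0.05, with a median of -0.26. The number lower was between 1, without P30 replicate 3, and 5, and the median between -0.39 and -0.12, when single libraries were left out. *Cacng5*, a transmembrane regulator of AMPA receptors, was at 94.3, 96.9 and 91.6 normalized CPM at P14 and at 57.3, 34.6 and 44.9 at P30 (log2 fold change -1.04, SE 0.26, limma adjusted p = 0.21). *Cacna1e*, the R-type channel, was at 28.1, 33.9 and 28.3 at P14 and at 15.9, 4.35 and 1.85 at P30. Its log2 fold change of -2.35 had an SE of 0.83, because the P30 libraries spread over 8-fold.

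In the presynaptic release machinery, 37 of 43 genes were measured. *Bsn* was the 1 member called, 11 were higher and 2 lower at an unadjusted p under 0.05, and 26 had an interval inside a 2-fold change. The median was 0.21, and between 8 and 15 members were higher when single libraries were left out. *Pclo*, the paralog of *Bsn* at the active zone, was at 521, 576 and 648 normalized CPM at P14 and at 894, 693 and 754 at P30 (log2 fold change 0.44, SE 0.13, limma adjusted p = 0.34). *Snap25*, the SNARE protein of the presynaptic membrane and the most abundant member, was at 8880, 9085 and 8764 at P14 and at 12890, 10730 and 13210 at P30. Its log2 fold change was 0.46 (SE 0.10, limma adjusted p = 0.14), although the libraries did not overlap. *Syt1*, a calcium sensor of release, had the largest log2 fold change, 1.07 (SE 0.40), with overlapping libraries at 205, 71.3 and 409 against 390, 297 and 448 normalized CPM. Of the vesicular glutamate transporters, *Slc17a7* had a log2 fold change of -0.72 (SE 0.27) and *Slc17a6* of 0.43 (SE 0.22), both without a call.

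Receptors for inhibitory and cholinergic input, which efferent fibers bring to SGNs, were measured for 16 of 30 subunits. At an unadjusted p under 0.05, 4 were higher and 0 lower, and the median was 0.53. When single libraries were left out, from 2 (without P14 replicate 2) to 6 (without P14 replicate 3) were higher, and the median was between 0.27 and 0.75. *Chrnb3* was at 50.3, 38 and 104 normalized CPM at P14 and at 171, 134 and 218 at P30 (log2 fold change 1.58, SE 0.34, limma adjusted p = 0.13). *Chrna4*, which forms nicotinic receptors with beta subunits, was at 22.5, 25.6 and 94.2 at P14 and at 94, 90.1 and 142 at P30, where P14 replicate 3 lay with the P30 libraries. *Gabrb2* had the largest estimate (log2 fold change 2.55, SE 0.98), from 10.6, 0.948 and 13.2 to 71.5, 13.7 and 19.7 normalized CPM. It met the CPM rule of the comparison at P30 only. Among 17 glutamate receptor subunits, 2 were higher and 1 lower at an unadjusted p under 0.05.

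Of 21 markers that separate the SGN subtypes, 19 were measured, 8 were lower and 2 higher at an unadjusted p under 0.05, 0 were called, and the median was -0.56, which stayed between -0.64 and -0.47 when single libraries were left out, while the number lower was between 3 (without P30 replicate 3) and 9. *Calb1*, calbindin and a marker of one type I subtype, was at 16.4, 16.8 and 9.23 normalized CPM at P14 and at 30.9, 151 and 118 at P30. P30 replicate 1 lay nearer to P14 than to its own age, and the log2 fold change of 2.43 (SE 0.67) had a limma adjusted p of 0.28, and of 0.034 with the replicate block. *Calb2*, calretinin, was at 620, 994 and 650 at P14 and at 441, 821 and 443 at P30 (log2 fold change -0.46, SE 0.22). *Pcdh20*, found with *Calb2* in another type I subtype, had a log2 fold change of -1.32 (SE 0.47), and *Lypd1* and *Pou4f1*, of the remaining one, had -0.47 and 0.46. Of the type II markers, *Th*, tyrosine hydroxylase, was at 13.7, 27.6 and 15.8 at P14 and at 8.37, 0.820 and 1.32 at P30 (log2 fold change -2.87, SE 0.80, limma adjusted p = 0.30), *Plk5* at 13.7, 11.9 and 29.1 and then at 3.85, 0.615 and 0.292 (-3.96, SE 1.05, limma adjusted p = 0.24). *Prph*, peripherin, showed no such order, at 70, 1.40 and 39.3 normalized CPM at P14 and at 158, 3.17 and 0.585 at P30. Libraries of 1 age thus differed in *Prph* by over 10-fold.

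Transcription factors of SGNs were measured for 35 of 45 genes, with *Onecut2* as the 1 call. At an unadjusted p under 0.05, 4 were higher and 4 lower, and 2 to 7 were higher and 2 to 5 lower when single libraries were left out. *Prox1*, a regulator of SGN development, was at 306, 449 and 275 normalized CPM at P14 and at 171, 202 and 136 at P30 (log2 fold change -1.002, SE 0.25, limma adjusted p = 0.21), without overlap. *Gata3* had a log2 fold change of -0.76 (SE 0.40). *Esrrg*, an orphan nuclear receptor needed for hearing, was at 413, 564 and 464 at P14 and at 589, 539 and 694.5 at P30, which overlap.

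The 23 measured immediate early genes, which respond to neuronal activity and to cell handling, had a median log2 fold change of -1.26. Of them, 1 had an unadjusted p under 0.05, 0 were called, and without P14 replicate 1 the median was -0.18. Both replicates numbered 1 were the highest of their age for *Egr1*, at 544 against 103 and 104 normalized CPM at P14 and at 214 against 52.4 and 24.3 at P30, and likewise for *Fos*, *Fosb*, *Jun* and *Nr4a1*. With the replicate block on 15 libraries, 15 of the 23 were lower at an unadjusted p under 0.05. In that fit 1312 of all 15113 genes were under this p in either direction. Of the 23, 0 were called, with an adjusted p of 0.41 for *Egr1* and 0.12 for *Fos* in limma. With the block restricted to the 6 libraries, 196 of all 12795 genes were called lower. These included 14 of the 23, among them *Egr1* (log2 fold change -1.41, limma adjusted p = 0.00216) and *Fos* (-1.84, 0.00281). *Egr1* and *Fos* were at 1820 and 1170 CPM in the glial libraries, and the part of glial RNA in these values was not tested. Among 19 heat shock and stress chaperones, 5 were higher and 0 lower at an unadjusted p under 0.05, 7 were higher without overlap, and the median was 0.18. *Bag3*, a co-chaperone, was at 101, 59.1 and 83.8 normalized CPM at P14 and at 264, 136 and 245 at P30 (log2 fold change 1.39, SE 0.40, limma adjusted p = 0.32). *Hsp90ab1*, at 2130, 2166 and 2232 and then at 2879, 2355 and 2721, had no overlap either but a log2 fold change of 0.29.

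**Figure D5:**
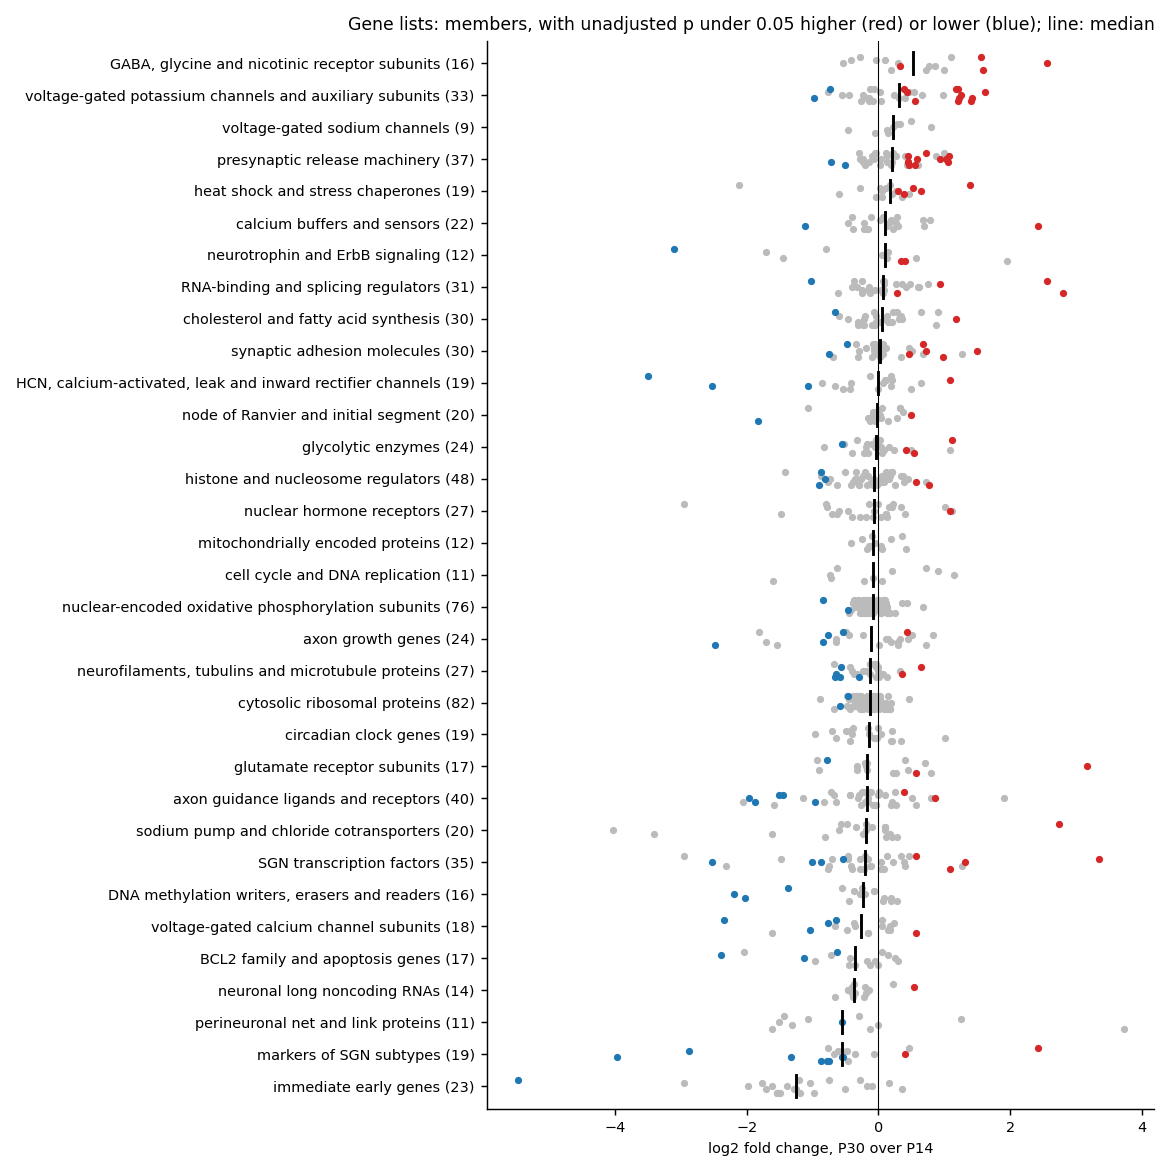
Log2 fold change from P14 to P30 of each measured member of 33 gene lists, ordered by their medians (black lines), with members at an unadjusted p under 0.05 in red (higher) or blue (lower) and the number measured in brackets. Potassium channels and presynaptic genes have most of their colored members on the right, SGN subtype markers have most on the left, and oxidative phosphorylation and ribosomal genes lie close to 0.

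A lack of change could be bounded for many genes. Of the 12795 genes, 5399 (42.2%) had a 95% confidence interval of the fold change inside a 2-fold change in either direction. Among the 7742 with CPM over 10 in all 3 libraries of either age, these were 5258 (67.9%). The median SE of the log2 fold change was 0.28 for these more abundant genes and 0.68 for the rest, which left wider intervals for genes of low level. The estimate itself was past 2-fold for 1181 genes, 526 higher and 655 lower, most of which did not pass the test.

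Genes of energy supply and translation were mostly bounded. Of 76 nuclear-encoded subunits of oxidative phosphorylation, 70 had an interval inside a 2-fold change, as had 63 of 82 cytosolic ribosomal proteins, and 0 of either list were called. Of the ribosomal proteins, 10 were lower without overlap and 1 higher, with a median of -0.13. In the cytoskeleton, 20 of 27 neurofilament, tubulin and microtubule genes were inside the interval. *Nefl*, the light neurofilament, was at 3693, 4179 and 5577 normalized CPM at P14 and at 3698, 3608 and 3445 at P30 (log2 fold change -0.29), and *Nefh*, the heavy one, had -0.40. At the node of Ranvier and initial segment, 17 of 20 genes were inside the interval, among them the anchors and adhesion proteins made by the neuron, while *Gldn* was the 1 member called. The 12 mitochondrially encoded proteins had a median of -0.08 and 0 with an unadjusted p under 0.05, although the mitochondrial share of counts was lower at P30.

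The replicate block added 14 genes to the 9, most of them already described. Of the others, *F2r*, the thrombin receptor, was at 203, 68.5 and 282 normalized CPM at P14 and at 446, 390 and 719 at P30 (log2 fold change 1.603, limma adjusted p = 0.028 with the block). *Utrn*, *Fam102b* and the uncharacterized *Gm765* rose with log2 fold changes of 1.27, 1.45 and 2.88 in the same fit. *Drd2*, the dopamine D2 receptor, through which lateral efferent fibers can act on SGNs, had the largest log2 fold change of all 12795 genes. It met the CPM rule of the comparison at P30 only, so this rank is not independent of that rule. *Drd2* had 2, 2 and 10 counts in P14 replicates 1 to 3 and 295, 92 and 300 counts in P30 replicates 1 to 3, or 0.083, 0.1 and 0.58 against 9.08, 4.71 and 14.6 normalized CPM. The groups were far apart on this scale, at levels near the limit of detection at P14, and the limma adjusted p was 0.031 with the block and 0.13 without.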

How the data were processed

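SGNs of P14 and P30 mice were picked by hand and profiled by RNA-Seq, 3 libraries per age. Per the submitters' processing notes and the study's methods, the authors aligned reads to mm10 with STAR 2.4.0i and counted them per gene with featureCounts on GENCODE vM15, and the deposited values are raw counts. Between 66.7% and 73.5% of counts from 1 to 20 were even, so both reads of a pair may have been counted, and strand use is not given in the sources used here. Of the 52550 gene IDs, 52403 were given a symbol and position by matching to a GENCODE annotation of GRCm38.

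All 15 SGN libraries entered 1 limma-voom fit (limma 3.58.1, edgeR 4.0.16, R 4.3.3) with TMM scaling and no replicate block, on 15113 genes with CPM over 1 in all libraries of at least 1 age. A gene was called at a Benjamini-Hochberg adjusted p under 0.05 and a change over 2-fold. The script was tested on simulated data. Library measures were compared by a two-sided exact permutation test (scipy 1.17.1). Counts per library and their totals, from 19323437 to 37287489, set the precision given with each value. TPM was not used for levels, because *Gm23935*, a very short gene, took 8.17% to 59.3% of it.

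Same-numbered P14 and P30 libraries deviated together from their age means (r = 0.33, 0.23 and 0.12 over 12795 genes, against -0.26 to 0.096 for other pairs). Deviations of 3 libraries from their mean cancel out, so positive same-numbered pairs push the other pairs down, and the contrast is partly built in. Values with the replicate number as a block are given where they change a call. The labels name no batch shared by number.

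The genes and lists were chosen with earlier results of these data known. Named genes were those called; those not called with no overlap, CPM over 10 and the 6 smallest p in each direction; the member of each list with the largest change at CPM over 10; the DNA methylation list; and the markers. Some genes of these lists are not reported here by name. Other genes named were chosen after their values were seen. Alternatives covered scaling, test, weights, samples, filters, halved counts and leaving out each library.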

Additional observations from a re-analysis of the deposited data

How the results depend on the processing

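The count of 9 called genes was 97 with DESeq2, 110 with sample quality weights, 2 with the 6 libraries only, 23 for the replicate block on 15 libraries and 270 for the replicate block on 6, 15 with no filter on low counts and 26 with CPM over 10. It was 6 with edgeR's quasi-likelihood test, 13 with no fold limit and 9 or 10 under the scaling, halving and adjustment alternatives. Leaving out single libraries gave from 1 to 30 calls. The cause of these differences was not tested. *Dnmt3a* was called in each of the 13 alternatives and 6 fits without a library, and *Tet1* in the 13 alternatives but in 1 of the 6. Signs turned for genes with small or uncertain changes. *Mbd2* went to 0.0438 and *Gadd45g* to -0.0797 with quality weights, and with the replicate block *Gadd45g* went to -0.00945 and *Gadd45a* to 0.00654. Without single libraries the log2 fold change lay between -0.22 and 0.88 for *Scn9a*, -1.18 and 0.0825 for *Gadd45b*, -0.21 and 0.11 for *Mbd2*, -0.23 and 0.31 for *Gadd45g* and -0.47 and 0.16 for *Gadd45a*. The number of genes bounded inside a 2-fold change stayed between 4112 and 7228.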

Other observations

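Further gene lists held no called gene. Of 24 axon growth genes, 4 were lower and 1 higher at an unadjusted p under 0.05, and of 40 axon guidance ligands and receptors, 5 were lower and 2 higher. Among 30 synaptic adhesion molecules, 5 were higher and 2 lower, with *Nrxn3* at a log2 fold change of 1.49. The 11 genes of perineuronal nets had a median of -0.55, with 1 lower. When single libraries were left out, 2 to 7 axon growth genes and 3 to 4 guidance genes were lower and 2 to 5 adhesion molecules higher. Of 17 BCL2 family and apoptosis genes, 3 were lower and 0 higher, and of 31 RNA-binding and splicing regulators, 4 were higher and 1 lower, which without single libraries were 0 to 3 lower and 1 to 3 higher. The 19 circadian clock genes and the 11 measured cell cycle genes had 0 in either direction by limma. *Slc12a5*, the chloride extruder KCC2, was at 4.11, 1.2 and 0.58 normalized CPM at P14 and at 11.4, 5.89 and 15.45 at P30, without overlap. It met the CPM rule of the comparison at P30 only, so this rise is not independent of that rule. Of all 12795 genes, 8.1% were higher without overlap.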
